A study of Mus musculus with 12 samples.

Results

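The genes described are the subunits of oxidative phosphorylation in mouse blood stem and progenitor cells (HSPCs), which sit in bone marrow and give rise to all blood lineages. Members were protein-coding genes of the GENCODE M21 annotation whose symbols start with mt-, Ndufa, Ndufb, Ndufc, Ndufs, Ndufv, Uqcr, Cox4 to Cox8 or Atp5, or are Sdha, Sdhb, Sdhc or Sdhd, with at least 100 counts over the 12 libraries. Of 54532 genes in the count table, 107 had such a symbol and 101 reached the count. The 6 others were Cox7b2 and Cox8b with 2 counts each, Ndufa4l2 with 64, mt-Atp8 with 92, and Cox8c and a second gene called Atp5o with 0. Closest above the limit were Cox4i2 with 172 counts and Cox7a1 with 201. The mitochondrial genome encoded 12 members and the nucleus 89. Of the nuclear members 79 were subunits, namely 36 of complex I (7 core and 29 accessory), 4 of complex II, 8 of complex III, 15 of complex IV and 16 of complex V. The symbol rule also caught 10 nuclear genes that are not subunits: the complex I assembly factors Ndufaf1 to Ndufaf8, the supercomplex factor Cox7a2l and Atp5s, a factor related to ATP synthase.

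Oxidative phosphorylation passes electrons from NADH and succinate through complexes I to IV of the inner mitochondrial membrane to oxygen, and complex V, the ATP synthase, uses the resulting proton gradient to make ATP. Complex II is encoded wholly in the nucleus, whereas the other complexes join nuclear subunits to a few hydrophobic ones made inside the mitochondrion, so that both genomes supply each of them. Haematopoietic stem cells are known for relying little on this pathway at rest and for engaging it when they divide and differentiate.

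Bulk poly(A) RNA sequencing covered 4 groups of 3 libraries: uncultured young HSPCs, uncultured aged HSPCs, and aged HSPCs cultured with vehicle or with uridine, a pyrimidine nucleoside. All came from bone marrow of mice labelled wild type, and the genotype labels name a different C57BL number in most libraries, so the strain is uncertain. No source used here gives mouse ages, sorting markers, culture time or uridine dose, or says whether a group's 3 libraries were separate animals or cultures. The p-values then reflect only how far these libraries differ from each other, which may be technical. Levels are CPM, counts scaled by library size and TMM factor, given per library or as the mean ± SD of 3 libraries. A gene is called higher or lower where the edgeR quasi-likelihood test gave an adjusted p under 0.05 over all 16675 genes tested, and all 101 members were among these.

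Library totals lay between 16785065 and 19025802 counts. Immunoglobulin genes with Jchain took 21.8 ± 0.173% of the counts in aged uncultured libraries and 0.543 ± 0.00255, 0.923 ± 0.00143 and 0.607 ± 0.00744% in young, vehicle and uridine libraries. The 8 plasma cell markers of the list used summed to 25630 to 25890 CPM in aged uncultured libraries, against 633.7 to 643 in young, 1044 to 1092 in vehicle and 704 to 729.6 in uridine libraries, with none at 0 in any group. The 8 stem and progenitor markers summed to 1423 to 1453 CPM in young, 1296 to 1320 in aged uncultured, 1743 to 1764 in vehicle and 1582 to 1626 in uridine libraries, with none at 0. Of these markers, 2 were called higher and 5 lower in aged against young uncultured cells. With uridine against vehicle, 2 were higher and 3 lower. Against aged uncultured cells, 5 were higher and 2 lower in vehicle culture, and 5 higher and 0 lower in uridine culture. In bulk samples, fewer cells of a type and less RNA per cell cannot be told apart. As a plain share of all counts, nuclear subunits went from 0.88 ± 0.0134% in young to 0.731 ± 0.00734% in aged libraries and the mitochondrial members from 1.377 ± 0.00929 to 1.288 ± 0.0286%. With TMM factors, which put the bulk of genes level between libraries, the sum over nuclear subunits in aged libraries was instead 105.3 ± 1.04% of the young mean. All values below use TMM. Scaling by library totals alone moved the median of all genes by age from 0.017 to -0.322 on the log2 scale, from -0.012 to 0.322 for vehicle culture and from 0.030 to 0.386 for uridine culture, so changes are relative to the typical gene.

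Between genes, levels are compared per kilobase of the principal transcript. In young libraries mt-Co1, the catalytic core of complex IV, was highest at 4149 ± 22.8 CPM per kilobase, followed by mt-Cytb, the cytochrome b of complex III, at 1623 ± 40.8 and mt-Nd1, a membrane subunit of complex I, at 1603 ± 28.1, which did not differ beyond their spread. The most abundant nuclear member was Atp5b, the catalytic beta subunit of ATP synthase, at 632.8 ± 9.71 CPM per kilobase, about level with mt-Nd6 at 634.7 ± 11.6 and mt-Nd2 at 644.9 ± 8.86. Atp5a1, the alpha subunit, reached 401.1 ± 2.94, Cox4i1 345.7 ± 25.4 and Cox6a1 309.3 ± 3.18 CPM per kilobase. The 4 subunits of complex II ran from 26.4 ± 0.583 (Sdhc) to 112 ± 1 (Sdha) CPM per kilobase, with Sdhd at 111 ± 3.18, within the spread of Sdha. In aged uncultured libraries mt-Co1 stood at 4261 ± 90.7, mt-Cytb at 2205 ± 57.4 and mt-Nd1 at 2133 ± 32.6 CPM per kilobase, with Atp5b at 541.8 ± 10.2.

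Some promoters of the nuclear members hold sequence motifs that the symbol rule did not use. NRF1, GABP (an ETS family factor) and YY1 are known activators of respiratory chain genes. RefSeq promoters of 300 bases (GRCm38.p6, from 250 bases before to 50 after the start of transcription) were found for 74 of the 89 nuclear members, with 79 promoters in all. A match to the NRF1 motif (GCGCA, any base, GCGC) on either strand lay in 25.3% of them, against 4.6% of all 32851 promoters and 6.38% of those of protein-coding genes. The ETS motif CCGGAAG was in 22.8% against 8.86 and 11.6%, and the YY1 motif (aa, any base, atggcggc) in 6.33% against 0.986 and 1.38%. Each motif was counted on its own, whether or not matches overlapped, and 46.8% of member promoters held at least 1 of them, against 13.3% of all promoters and 17.7% of those of protein-coding genes, so that most held none. The promoters of 3 members with both an NRF1 and an ETS match are printed, because their levels moved differently in the comparisons that follow; the motif letters are in capitals, and CTTCCGG is the ETS motif on the other strand.
Atp5k (chr5:108434350-108434649, minus strand): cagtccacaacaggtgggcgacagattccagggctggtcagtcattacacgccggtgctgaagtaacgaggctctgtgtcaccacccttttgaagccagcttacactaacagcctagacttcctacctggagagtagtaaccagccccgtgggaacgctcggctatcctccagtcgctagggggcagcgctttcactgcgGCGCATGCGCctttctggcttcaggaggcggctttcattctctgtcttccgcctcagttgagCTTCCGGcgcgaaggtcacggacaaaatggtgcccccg
Cox6a1 (chr5:115348909-115349208, minus strand): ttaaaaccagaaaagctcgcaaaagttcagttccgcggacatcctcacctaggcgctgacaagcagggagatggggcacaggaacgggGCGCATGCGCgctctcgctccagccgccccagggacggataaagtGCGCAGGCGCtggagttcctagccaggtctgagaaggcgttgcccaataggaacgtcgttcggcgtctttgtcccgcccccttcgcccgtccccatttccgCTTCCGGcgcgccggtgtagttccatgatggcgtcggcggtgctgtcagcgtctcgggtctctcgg
Sdhd (chr9:50603800-50604099, minus strand): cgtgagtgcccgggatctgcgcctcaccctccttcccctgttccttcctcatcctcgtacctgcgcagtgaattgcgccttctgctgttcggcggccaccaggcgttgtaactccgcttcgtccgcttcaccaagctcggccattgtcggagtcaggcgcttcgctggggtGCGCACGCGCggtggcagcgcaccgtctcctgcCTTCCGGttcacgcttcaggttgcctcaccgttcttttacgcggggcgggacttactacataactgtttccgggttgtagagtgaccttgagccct
A match is a description of the letters and not a bound site.

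In aged against young uncultured cells, most nuclear subunits that changed were higher. The share called higher was similar in complexes I and III (63.9 and 62.5%), against 46.7% in complex IV, 43.8% in complex V and 25% in complex II. Also higher were the 5 mitochondrial genes, of complexes I and III, that have no near-identical copy in the nuclear genome. Of the 101 members 57 were called higher, where 33.2% of all genes tested were, and 11 were called lower, where 32.1% were; in percent of members this is 56.4 and 10.9. Of the 79 nuclear subunits 43 rose, 7 fell and 29 were not called (median 0.155 on the log2 scale, against 0.017 over all genes). Complex I gave 23 higher and 1 lower of 36 (median 0.19), complex III 5 higher and 0 lower of 8 (0.16), complex IV 7 and 1 of 15 (0.08), complex V 7 and 3 of 16 (0.02) and complex II 1 and 2 of 4 (-0.02). With library totals in place of TMM the same count was 21 members higher and 54 lower, and the nuclear median was 0.135 above that of all genes, against 0.138 with TMM. The shares of all genes called under library totals are not given here, so these 2 counts cannot be read against them. Markers of other cell types moved in the same contrast. Plasma cell markers rose in 8 of 8. B cell markers rose in 7 and fell in 1 of 8 (summed 613.7 to 623.2 CPM in young against 2147 to 2243 in aged libraries). T and natural killer cell markers rose in 7 of 8 (119.5 to 125.3 against 293.4 to 324). Markers of maturing neutrophils fell in 8 of 8 (5068 to 5292 against 516.5 to 551.6 CPM) and erythroid markers in 8 of 8 (356.6 to 369.7 against 144.6 to 153.1). Basophil and mast cell markers fell in 6 of 8 (995.8 to 1043 against 158.4 to 168). Megakaryocyte markers fell in 5 and rose in 1 of 8 (184 to 188.8 against 118.3 to 128.6). Monocyte and macrophage markers fell in 4 and rose in 1 of 8 (1205 to 1259 against 263.4 to 274.6). Stromal markers fell in 4 and rose in 2 of 7 tested (633.3 to 661.3 against 118.3 to 129). None of these markers was at 0 in either group, and their part in the members' changes was not tested.

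**Figure D1:**
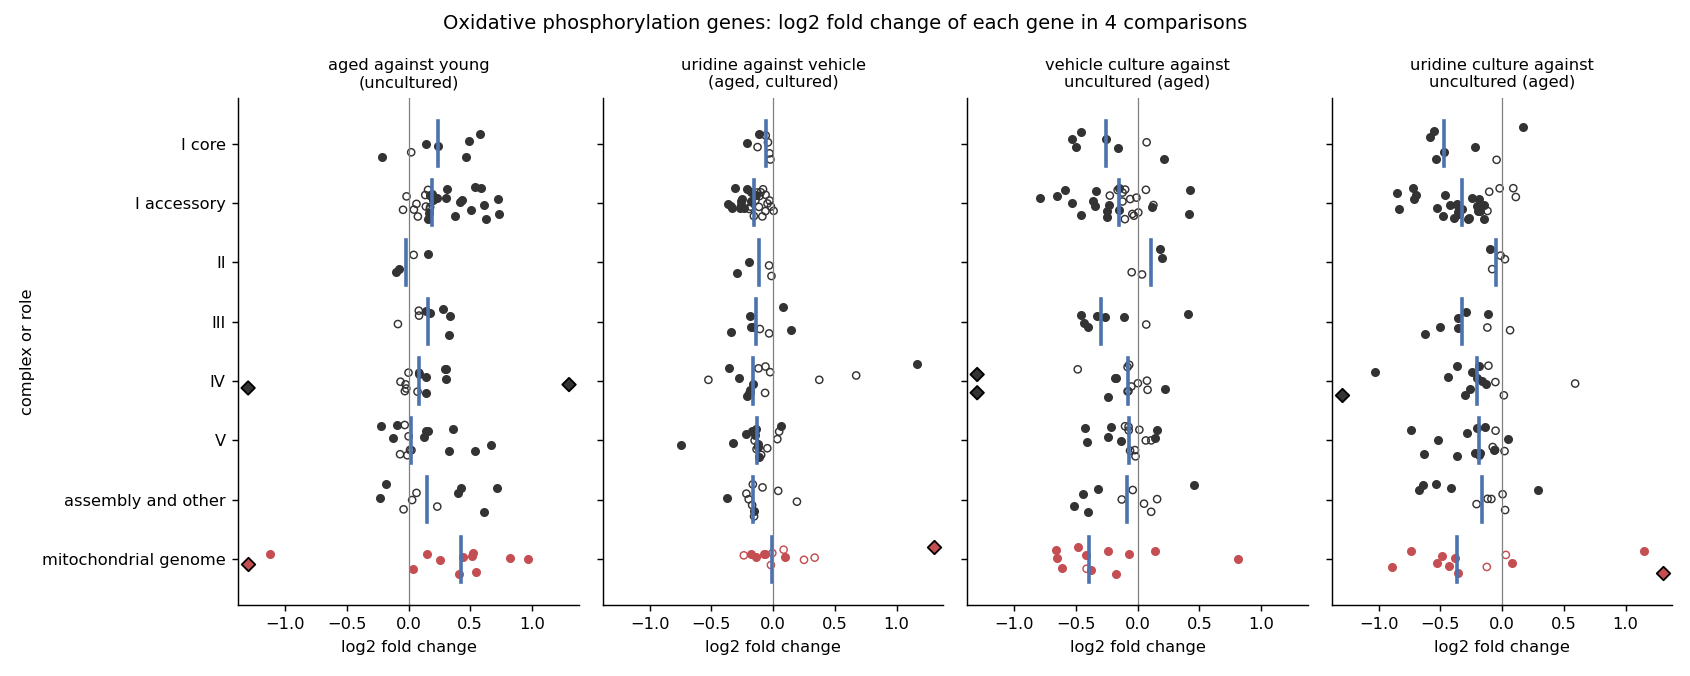
Log2 fold change of each of the 101 members (x axis) by complex or role (rows) in the 4 comparisons (panels); filled points passed the test, open points did not, diamonds at the edge lie beyond the axis, blue bars are medians and the mitochondrial genome is in red. The points of complex I lie mostly right of 0 with age (medians 0.24 core and 0.19 accessory) and left of 0 in uridine culture (-0.47 and -0.32), while those of complex II lie near 0.

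Among accessory subunits of complex I, which surround and stabilise the catalytic core, 18 of 29 rose with age and 0 fell. Ndufa1 (chromosome X, 37187588 to 37191163, minus strand, GRCm38), a small membrane arm subunit, had 19.1, 17.9 and 24.3 CPM in the young, 34.4, 37.2 and 30.2 in the aged, 20.9, 21.6 and 22.3 in the vehicle and 20.9, 19 and 17.2 in the uridine libraries. Only the aged uncultured libraries were high, and the young, vehicle and uridine libraries overlapped in part. The log2 fold change of Ndufa1 with age was 0.73 (SE 0.0983, edgeR adjusted p = 4.48e-08); below, rises and falls are log2 fold changes. Ndufv3 (chromosome 17, 31520115 to 31531331, plus strand), a subunit of the NADH-oxidising tip, had 32.8, 30.6 and 34.7 CPM in the young, 61.4, 47.9 and 52.4 in the aged, 33.7, 37 and 36.8 in the vehicle and 34.4, 32.3 and 32.8 in the uridine libraries. Its 3 aged uncultured libraries again stood above the 9 others, with a rise of 0.72 (SE 0.0758, edgeR adjusted p = 1.95e-10). Ndufb10, another membrane arm subunit, rose by 0.63 from 61.5 ± 2.4 to 94.9 ± 2 CPM (SE 0.049, edgeR adjusted p = 1.09e-13), and Ndufb11 rose by 0.54 from 69.4 ± 1.69 to 101 ± 5.2 CPM (SE 0.0485, edgeR adjusted p = 4.57e-12).

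The 7 nuclear core subunits of complex I carry its flavin and iron-sulphur clusters, and 5 of them rose with age while Ndufs1 fell. Ndufs3 had 51.9, 52.1 and 54.5 CPM in the young, 79, 80.2 and 77.4 in the aged, 59.4, 55.4 and 57.5 in the vehicle and 51.8, 54.3 and 51.8 in the uridine libraries, and its aged libraries lay apart from those of every other group. Its rise was 0.58 (SE 0.0517, edgeR adjusted p = 3.45e-12), followed by Ndufs7 at 0.49, Ndufs8 at 0.46 and Ndufv1 at 0.24. Ndufv2 was called at 0.14, but 3 of the 6 fits that leave out a library lost the call (adjusted p up to 0.0923), namely those without young replicate 1, young replicate 2 or aged replicate 3. Ndufs1, the largest subunit, had 103, 103 and 99.2 CPM in the young, 85.7, 86.6 and 90.8 in the aged, 100.3, 100.1 and 104 in the vehicle and 96.9, 101 and 98.2 in the uridine libraries. Here the aged uncultured libraries were the low ones, with no overlap with any other group and a fall of 0.22 (SE 0.0412, edgeR adjusted p = 2.21e-05).

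In complex II, which oxidises succinate and also belongs to the tricarboxylic acid cycle, changes with age were small. Sdhb, the iron-sulphur subunit, rose by 0.16 from 87.8 ± 2.97 to 97.9 ± 1.73 CPM (SE 0.0411, edgeR adjusted p = 0.00121), and Sdha, the flavoprotein, fell by 0.08 from 325 ± 2.91 to 307 ± 3.29 CPM (SE 0.0268, edgeR adjusted p = 0.00867). Sdhd, the membrane anchor whose promoter is printed above, was lower by 0.10 (edgeR adjusted p = 0.0396), a call lost without young replicate 1 (adjusted p = 0.152) or aged replicate 2 (0.404). In complex III the Rieske protein Uqcrfs1 rose by 0.17 (SE 0.0399, edgeR adjusted p = 0.000258) and Uqcr11, Uqcrq, Uqcrh and Uqcrc1 rose by 0.34, 0.33, 0.28 and 0.14.

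In complex V the catalytic subunits fell and several small subunits rose. Atp5b, the most abundant nuclear member, had 1228, 1192 and 1218 CPM in the young, 1060, 1031 and 1023 in the aged, 1046, 1059 and 1040 in the vehicle and 1077, 1072 and 1071 in the uridine libraries. The young libraries were highest and no other group reached them, with a fall of 0.22 with age (SE 0.0199, edgeR adjusted p = 2.85e-12). Atp5a1 fell by 0.13 from 991 ± 7.27 to 908 ± 4.8 CPM (SE 0.0201, edgeR adjusted p = 1.14e-06). In contrast, Atp5k, the small e subunit that helps the synthase form dimers, had 8.6, 9.25 and 11.9 CPM in the young, 16.6, 15.3 and 15.1 in the aged, 16, 15.9 and 18.9 in the vehicle and 10.5, 10.1 and 9.7 in the uridine libraries. Its young and uridine libraries overlapped at the low end and its aged and vehicle libraries at the high end. The rise of Atp5k with age was 0.67 (SE 0.121, edgeR adjusted p = 1.06e-05). The delta and epsilon subunits of the rotor stalk, Atp5d and Atp5e, rose by 0.36 and 0.54 (SE 0.039, edgeR adjusted p = 4.33e-10, and SE 0.0495, edgeR adjusted p = 6.48e-12). Among the genes for subunit c, the ring through which protons pass, Atp5g1 was not called (0.00), while the calls of Atp5g2 (0.12) and Atp5g3 (-0.09) were each lost in 4 of the 6 fits that left out a library (adjusted p up to 0.216 and 0.232).

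Among the genes that are not subunits, Atp5s rose by 0.71 with age from 7.49 ± 0.675 to 12.3 ± 1.23 CPM (SE 0.136, edgeR adjusted p = 2.19e-05). Ndufaf4 was lower by 0.18 (edgeR adjusted p = 0.0335), a call lost without young replicate 3 (adjusted p = 0.125), aged replicate 1 (0.0884) or aged replicate 3 (0.124).

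**Figure D2:**
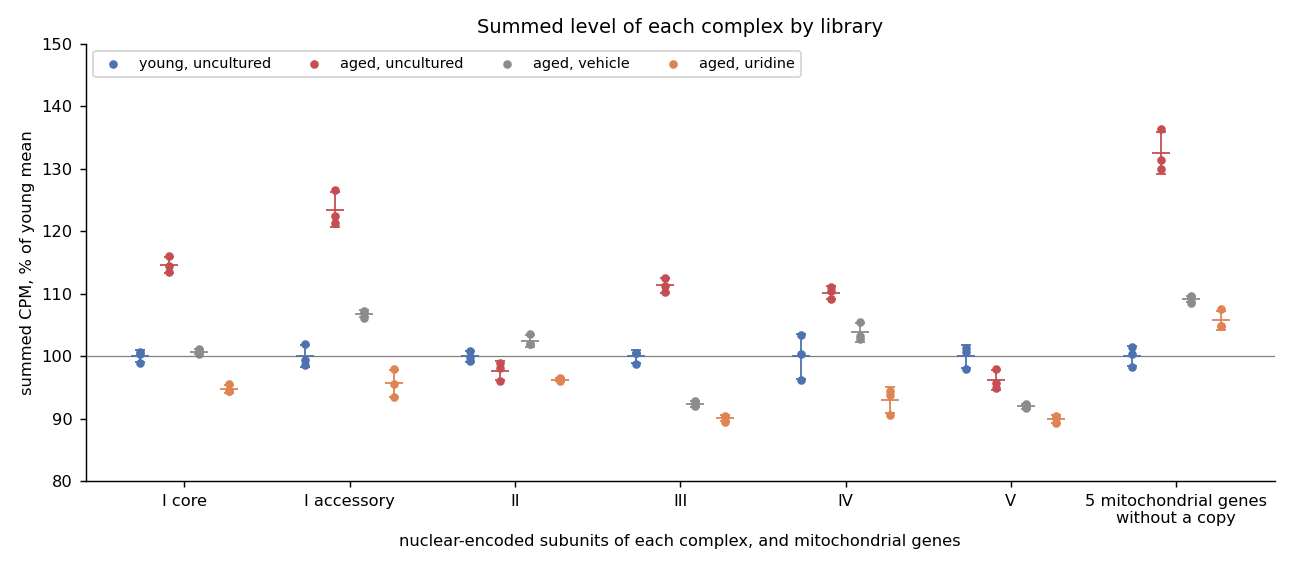
Summed CPM of the nuclear subunits of each complex and of the 5 mitochondrial genes without a chromosome 1 copy (x axis), in percent of the young mean (y axis); points are libraries and bars are mean ± SD of 3. Accessory subunits of complex I reached 123.4 ± 2.77% and the 5 mitochondrial genes 132.6 ± 3.32% in aged libraries, while complex V was at 96.21 ± 1.54%, and the uridine mean was the lowest of the 4 groups for each set of nuclear subunits. The y axis starts at 80%.

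Summed over all subunits of a complex, aged libraries stood at 114.7 ± 1.25% of the young mean for the core of complex I, 111.4 ± 1.16% for complex III and 110.2 ± 1.05% for complex IV, at 97.71 ± 1.48% for complex II and at 96.21 ± 1.54% for complex V. In uridine libraries every one of these sums was under 100%, from 89.95 ± 0.612% (complex V) to 96.29 ± 0.282% (complex II). Vehicle libraries lay between the aged uncultured and uridine means except for complex II, where they were highest at 102.4 ± 0.896%, with 92.37 ± 0.414% for complex III and 106.8 ± 0.527% for the accessory subunits of complex I. A sum is dominated by its abundant genes, which in complex V are Atp5b and Atp5a1.

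The mitochondrially encoded members were measured very unevenly. The 7 genes mt-Nd1, mt-Nd2, mt-Nd4, mt-Nd5, mt-Nd6, mt-Cytb and mt-Co1 summed to 12940 ± 72 CPM in young and 15322 ± 342 in aged libraries, whereas mt-Co2, mt-Co3, mt-Atp6, mt-Nd3 and mt-Nd4l together held 69.5 ± 4.96 and 99.4 ± 17.6 CPM. These 5 neighbouring genes are the ones for which a copy on chromosome 1 (24611535 to 24616197, minus strand) covers about 99% of the gene: Gm28661, Gm10925, Gm28437 and Gm10222 match mt-Co2, mt-Atp6, mt-Co3 and mt-Nd4l at 100% identity, and Gm28438 matches mt-Nd3 at 99.71%. Copies of mt-Nd4 (Gm28439) and mt-Co1 (Gm29216) cover 63.6 and 31.3% of those genes. The sources used here do not say how reads that match several places were counted. Levels of the 5 covered genes are therefore uncertain. Among nuclear members 13 of 89 had a near-identical copy over at least 150 bases. Copies of Ndufs3 (Gm12251, 556 counts against 12759) and Uqcrb (Gm2962, 186 against 8372) held few counts. Those of Ndufa12 (Gm15920, 2859 against 3787) and Atp5g1 (Gm10039, 5987 against 14645) held more. Ndufab1, with 8848 counts, had the copies Gm4459 (977) and Ndufab1-ps (631). How far these copies affect the levels of such members was not tested.

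**Figure D3:**
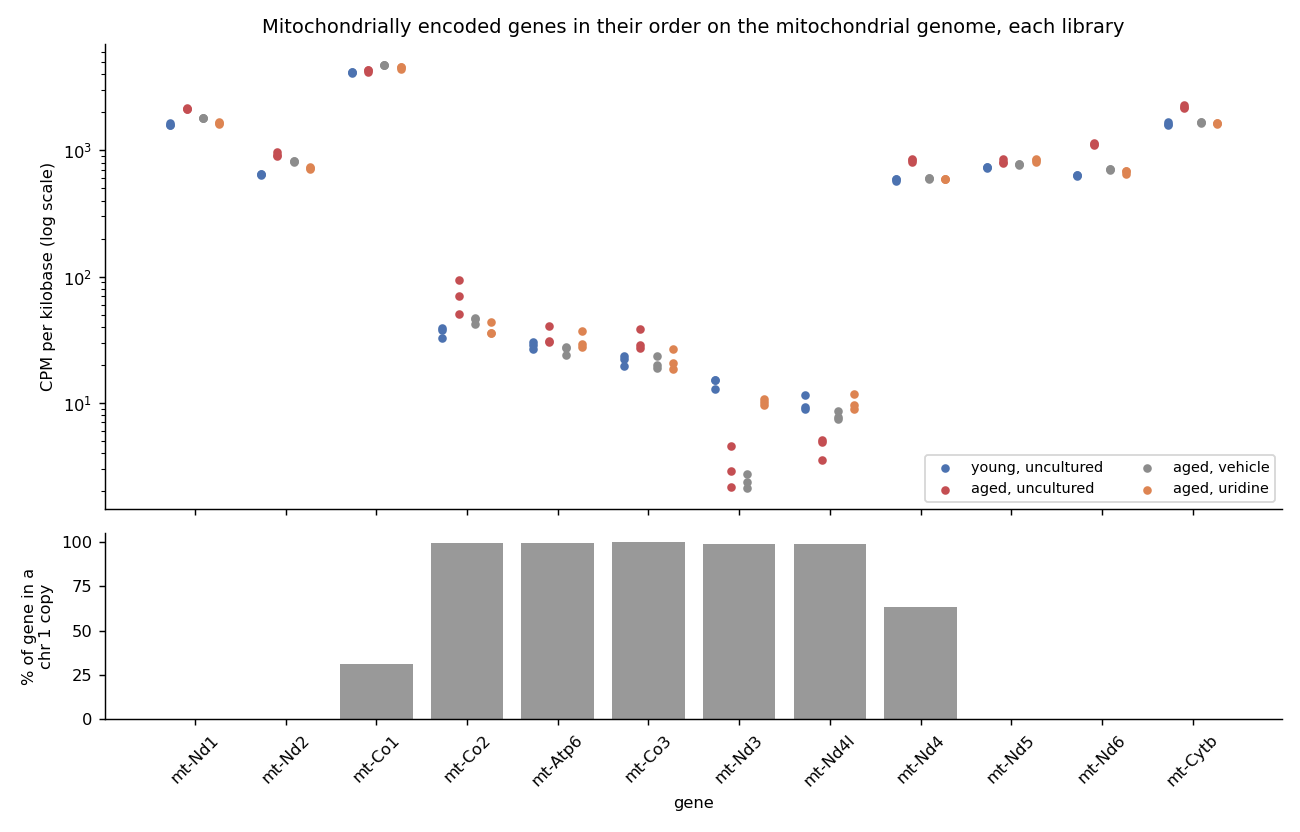
Upper panel: CPM per kilobase on a log scale for the 12 mitochondrially encoded members in their order along the mitochondrial genome, 1 point per library and 1 colour per group. Lower panel: percent of each gene covered by a near-identical copy on chromosome 1; the 5 genes covered by about 99% lie under 100 CPM per kilobase and all others above 500.

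With age, each of the 5 mitochondrial genes without any copy rose (median 0.44). mt-Nd6 had 323, 332 and 333 CPM in the young, 582, 588 and 573 in the aged, 370.3, 368 and 361 in the vehicle and 358, 336 and 353 in the uridine libraries. Its aged uncultured libraries stood far above all others, and the rise was 0.82 (SE 0.0269, edgeR adjusted p = 7.7e-25). mt-Nd2 had 660.1, 678 and 669.5 CPM in the young, 928, 1004 and 951 in the aged, 845, 854 and 859 in the vehicle and 764, 752 and 739 in the uridine libraries, with no overlap between any pair of groups. It rose by 0.52 with age (SE 0.024, edgeR adjusted p = 2.3e-20). mt-Cytb had 1813, 1850 and 1906 CPM in the young, 2465, 2594 and 2509 in the aged, 1914, 1866 and 1899 in the vehicle and 1888, 1856 and 1867 in the uridine libraries, and again only the aged uncultured libraries stood apart. The rise of mt-Cytb was 0.44 (SE 0.0192, edgeR adjusted p = 3.8e-21), that of mt-Nd1 0.41 (SE 0.0184, edgeR adjusted p = 8.44e-21) and that of mt-Nd5 0.15 (SE 0.0217, edgeR adjusted p = 1.42e-07); mt-Nd4, partly covered by a copy, rose by 0.51.

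mt-Co1 changed less than these. It had 6443, 6416 and 6373 CPM in the young, 6423, 6686 and 6639 in the aged, 7285, 7292 and 7255 in the vehicle and 6996, 6850 and 6992 in the uridine libraries. Young and aged libraries overlapped, and the vehicle libraries were the highest. The call of mt-Co1 with age (0.04, SE 0.0134, edgeR adjusted p = 0.013) was lost without young replicate 3 (adjusted p = 0.0842), aged replicate 2 (0.0888) or aged replicate 3 (0.0525). Within the summed counts of the 7 genes, mt-Co1 made up 49.5 ± 0.531% in young, 43 ± 0.349% in aged, 50.7 ± 0.147% in vehicle and 50.3 ± 0.316% in uridine libraries, and the share in aged libraries was below that in each of the 9 others. A share within a library shows unequal change among these genes and does not depend on the scaling.

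mt-Nd6 is the only member encoded on the light strand of the mitochondrial genome, and it overlaps the end of mt-Nd5 (chromosome M, 11742 to 13565 against 13552 to 14070, opposite strands). The ratio of mt-Nd6 to mt-Nd5 was 0.247 ± 0.00273 in young, 0.392 ± 0.0121 in aged, 0.26 ± 0.00499 in vehicle and 0.23 ± 0.00895 in uridine libraries. No aged uncultured library overlapped another group in this ratio. The sources used here do not say whether counting used strand, and reads of a transcript that runs antisense through mt-Nd6 cannot be told apart from those of mt-Nd6 itself.

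Counts of mitochondrial over nuclear subunits compare the genomes within each library. The ratio was 1.565 ± 0.0304 in young, 1.763 ± 0.0552 in aged, 1.78 ± 0.0085 in vehicle and 1.815 ± 0.00513 in uridine libraries. All 9 aged libraries, cultured or not, lay above the 3 young ones, and the aged uncultured libraries (1.705, 1.815 and 1.768) overlapped both cultures. The log2 ratio differed by 0.171 with age, 0.027 with uridine, 0.015 with vehicle culture and 0.042 with uridine culture. Without mt-Co1 the differences were 0.347, 0.041, -0.196 and -0.155, so the sign reversed in both culture comparisons.

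The 5 covered genes went different ways. mt-Co2 had 22.4, 26.9 and 25.7 CPM in the young, 47.7, 64.7 and 34.5 in the aged, 32.4, 29 and 31.7 in the vehicle and 24.5, 30.04 and 24.5 in the uridine libraries, and the aged libraries were the highest and the most scattered. It rose by 0.97 with age (SE 0.122, edgeR adjusted p = 1.2e-08), and its copy Gm28661 by 0.83. mt-Nd3 had 5.25, 5.26 and 4.48 CPM in the young, 0.999, 1.6 and 0.758 in the aged, 0.947, 0.824 and 0.734 in the vehicle and 3.35, 3.74 and 3.53 in the uridine libraries. Young and uridine libraries were high and aged uncultured and vehicle libraries low, with no overlap between these 2 sets. mt-Nd3 was lower by 2.15 with age (SE 0.268, edgeR adjusted p = 9.18e-09) and rose by 2.07 with uridine against vehicle (SE 0.276, edgeR adjusted p = 1.33e-07). Its copy Gm28438 had 8.65, 7.56 and 6.34 CPM in the young, 19.3, 17.7 and 18.3 in the aged, 21.3, 20.5 and 18.8 in the vehicle and 23.1, 24 and 24.3 in the uridine libraries, and here the young libraries were the low ones: it rose by 1.29 with age (SE 0.111, edgeR adjusted p = 1.3e-12). With the copy's counts added, mt-Nd3 rose with age by 0.64 (adjusted p = 7.06e-07), a reversed direction, and its rise with uridine was 0.38 (adjusted p = 0.000758) in place of 2.07. In uridine culture the rise of 1.66 became 0.48 (adjusted p = 1.73e-05). mt-Nd4l likewise was lower with age by 1.13 (SE 0.276, edgeR adjusted p = 0.000562), which with the copy added was -0.26 (adjusted p = 0.173). mt-Atp6 was called at 0.25 with age, a call lost without young replicate 1 (adjusted p = 0.0849), young replicate 3 (0.149) or aged replicate 1 (0.464), and mt-Co3 rose by 0.55 (SE 0.123, edgeR adjusted p = 0.000208).

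The first 33 coding bases of mt-Nd3 (chromosome M, 9459 to 9806, plus strand, GRCm38) are shown beside those of the copy, because they hold the only difference found over the 345 bases that align, T3C, with positions counted from 1 at the first base of the gene; that base is in capitals.
mt-Nd3: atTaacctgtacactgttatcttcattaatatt
Gm28438: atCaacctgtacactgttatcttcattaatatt
The count table records no bases, so which of these letters the reads of each library carried was not tested.

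**Figure D4:**
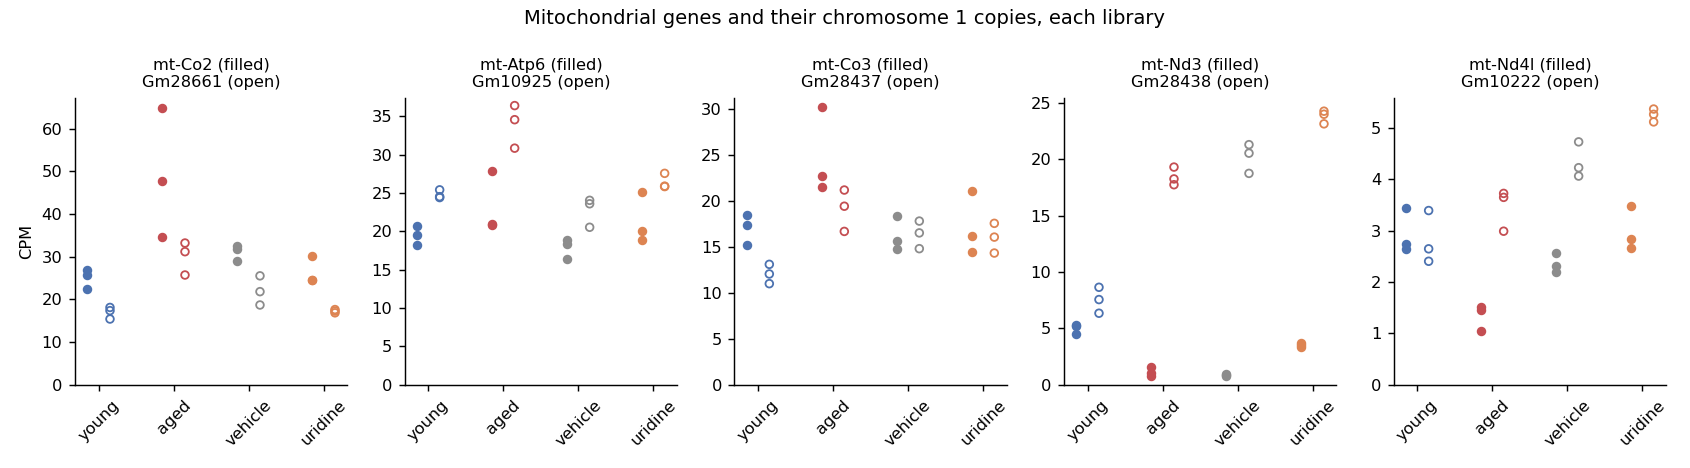
CPM (y axis, from 0) of the 5 mitochondrial genes (filled) and of their chromosome 1 copies (open) in each library of the 4 groups (x axis). mt-Nd3 and Gm28438 go opposite ways between young and aged libraries (4.996 against 1.119 CPM, and 7.51 against 18.4 CPM, as means), while mt-Co2, mt-Co3 and mt-Atp6 and their copies all have their highest mean in aged libraries.

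With uridine against vehicle, both on cultured aged cells, many nuclear subunits were lower by small amounts. Of the 101 members 42 were called lower, where 18.1% of all genes tested were, and 6 higher, where 20.0% were (41.6 and 5.94% of members). Of 79 nuclear subunits 36 fell, 4 rose and 39 were not called (median -0.134, against -0.001 over all genes), and 70 of the 79 had a negative value. The medians lay between -0.06 (core of complex I) and -0.17 (complex IV), with -0.16 for the accessory subunits of complex I, -0.13 for complex V, -0.14 for complex III and -0.11 for complex II. Markers of other cell types moved in the same contrast: 8 of 8 erythroid markers rose (summed 6.207 to 8.133 CPM in vehicle, with Slc4a1 at 0, against 123.1 to 128 in uridine libraries). So did 7 of 8 of maturing neutrophils, where 1 fell (289.5 to 297.6 against 1914 to 1984), 5 of 7 tested of stroma (100.4 to 102.8, with Pdgfra at 0, against 247.9 to 255.3) and 8 of 8 of B cells (53.48 to 55.43 against 225.7 to 242.9). T and natural killer cell markers rose in 7 of 8 (42.17 to 44.93 against 66.88 to 70.46 CPM). Megakaryocyte markers fell in 7 of 8 (1163 to 1172 against 768.8 to 785 CPM). Monocyte and macrophage markers fell in 6 and rose in 1 of 8 (3497 to 3556 against 2300 to 2368). Basophil and mast cell markers rose in 2 and fell in 4 of 8 and plasma cell markers likewise in 2 and 4 of 8. The part of these cells in the members' changes was not tested.

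The largest fall with uridine was that of Atp5k, by 0.74 (SE 0.116, edgeR adjusted p = 2.52e-06), from 16, 15.9 and 18.9 CPM in vehicle to 10.5, 10.1 and 9.7 in uridine libraries. Cox6b1, a subunit of complex IV on the side facing cytochrome c, had 95, 91.7 and 99.97 CPM in vehicle and 74.7, 74.5 and 74.4 in uridine libraries. The groups lay apart, with a fall of 0.36 (SE 0.0461, edgeR adjusted p = 6.28e-08). The accessory subunits Ndufa3 and Ndufa13 fell by 0.36 and 0.33 (SE 0.0755, edgeR adjusted p = 0.000179, and SE 0.0647, edgeR adjusted p = 8.33e-05), and Uqcrb, a small complex III subunit, by 0.34 (SE 0.0829, edgeR adjusted p = 0.00103). In complex II, Sdhb fell by 0.30 (SE 0.0395, edgeR adjusted p = 1.34e-07) from 111, 113 and 114 to 91.9, 93.5 and 89.7 CPM, and Sdhc, a membrane anchor, by 0.19 (SE 0.0418, edgeR adjusted p = 0.000275). Neither Sdha (-0.01) nor Sdhd (-0.03) was called. Of the core of complex I, Ndufs8 fell by 0.21 (SE 0.0485, edgeR adjusted p = 0.000502).

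The 4 nuclear subunits that rose with uridine were Cox6b2, Uqcrc2, Uqcrc1 and Atp5a1. Cox6b2 (chromosome 7, 4751792 to 4753094, minus strand) is an isoform of Cox6b1 known from testis, and it had 13, 15.6 and 16 CPM in the young, 14.9, 14.5 and 14.6 in the aged, 2.89, 2.31 and 4.41 in the vehicle and 6.25, 7.73 and 7.56 in the uridine libraries. Young and aged uncultured libraries overlapped at the top, the vehicle libraries were lowest and the uridine libraries lay between, touching neither. It rose by 1.17 with uridine (SE 0.172, edgeR adjusted p = 8.19e-07). Uqcrc2, a core protein of complex III, rose by 0.15 from 117, 112 and 108 to 126, 122 and 124 CPM (SE 0.04, edgeR adjusted p = 0.00351). Uqcrc1 (0.08, edgeR adjusted p = 0.0455) lost its call in 5 of the 6 fits that left out a library, all but the one without vehicle replicate 3, with an adjusted p up to 0.166. Atp5a1 (0.07, edgeR adjusted p = 0.00707) lost its call without vehicle replicate 2 (adjusted p = 0.0577) or vehicle replicate 3 (0.0503).

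Among mitochondrial genes without a copy, mt-Nd1 fell by 0.14 with uridine (SE 0.0183, edgeR adjusted p = 1.34e-07) and mt-Nd2 by 0.18 (SE 0.0239, edgeR adjusted p = 9.15e-08), and mt-Nd5 rose by 0.10 (SE 0.0216, edgeR adjusted p = 0.000276). mt-Nd1 had 1728, 1726 and 1721 CPM in vehicle and 1597, 1540 and 1569 in uridine libraries, and mt-Nd5 had 1413, 1402 and 1423 and 1547, 1519 and 1477. The groups did not overlap for either gene and lay in opposite order. mt-Co1 fell by 0.07 (SE 0.0134, edgeR adjusted p = 0.000108), mt-Cytb (-0.02) and mt-Nd4 (-0.01) were not called, and mt-Nd6 (-0.07, edgeR adjusted p = 0.0329) lost its call without vehicle replicate 1 (adjusted p = 0.108), vehicle replicate 2 (0.0704) or uridine replicate 2 (0.236).

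**Figure D5:**
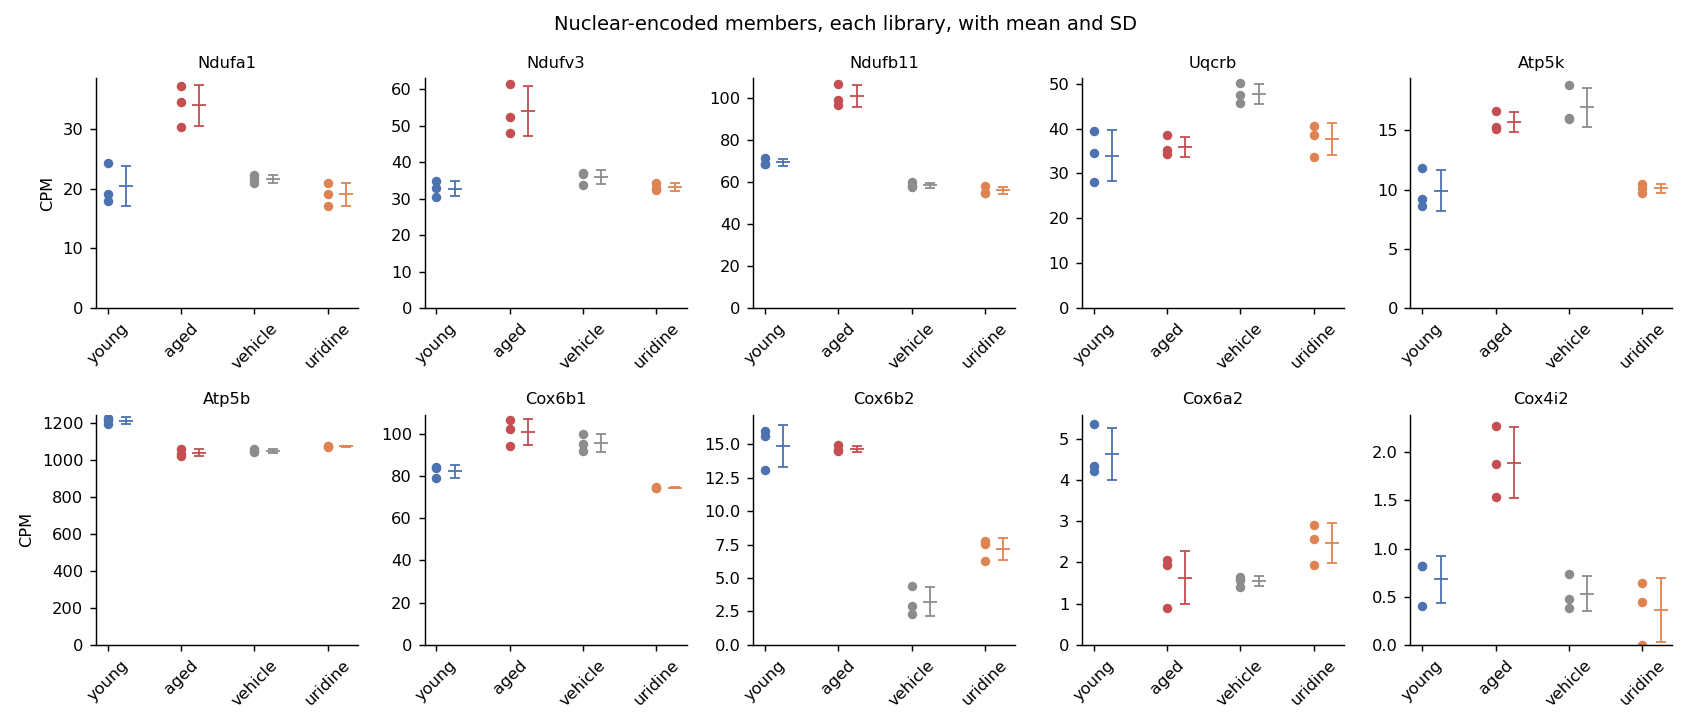
CPM (y axes, each from 0) of 10 nuclear members in every library of the 4 groups (x axes), with the mean ± SD of 3 beside the points. Ndufa1, Ndufv3 and Ndufb11 are highest in aged uncultured libraries, Atp5k is high in aged and vehicle libraries (means 15.7 and 16.9 CPM) and low in young and uridine ones (9.90 and 10.1), and Cox6b2 is lowest in vehicle libraries (3.20).

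Culture was compared with the same 3 aged uncultured libraries for vehicle and for uridine, and these libraries are also the aged side of the age comparison, so that the 3 sets of values are not independent; the uridine and vehicle libraries are likewise shared with the comparison of uridine against vehicle. In vehicle culture 47 members were called lower, where 35.1% of all genes tested were, and 13 higher, where 35.4% were (46.5 and 12.9% of members). In uridine culture 69 were called lower, where 32.1% were, and 6 higher, where 35.8% were (68.3 and 5.94% of members). Nuclear subunits gave 34 lower and 10 higher of 79 in vehicle culture (median -0.103, against -0.012 over all genes) and 58 lower and 2 higher in uridine culture (median -0.222, against 0.030). With library totals in place of TMM the counts were 17 members lower and 60 higher in vehicle culture and 22 lower and 46 higher in uridine culture, and the nuclear medians were then 0.090 and 0.252 below those of all genes, against 0.091 and 0.252 with TMM. For these counts too, the shares of all genes called under library totals are not given. Plasma cell markers were lower in 8 of 8 in both, B cell markers in 8 of 8 and T and natural killer cell markers in 8 of 8 (summed 293.4 to 324 CPM in aged uncultured, 42.17 to 44.93 in vehicle and 66.88 to 70.46 in uridine libraries). Megakaryocyte markers rose in 7 of 8 in both (118.3 to 128.6 CPM in aged uncultured, 1163 to 1172 in vehicle and 768.8 to 785 in uridine libraries). Monocyte and macrophage markers rose in 6 and fell in 2 of 8 in both (263.4 to 274.6, 3497 to 3556 and 2300 to 2368 CPM). Basophil and mast cell markers rose in 8 of 8 in vehicle culture and rose in 7 and fell in 1 of 8 in uridine culture (158.4 to 168, 390.9 to 401.1 and 543.1 to 557.8 CPM). Erythroid markers fell in 8 of 8 in vehicle culture and rose in 3 and fell in 2 of 8 in uridine culture. Markers of maturing neutrophils fell in 6 and rose in 1 of 8 in vehicle culture and rose in 8 of 8 in uridine culture. Stromal markers fell in 7 of 7 tested in vehicle culture and rose in 3 and fell in 3 in uridine culture. The part of these cells in the members' changes was not tested.

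Ndufb11 (chromosome X, 20615326 to 20617619, minus strand) had 71.3, 68.5 and 68.2 CPM in the young, 98.9, 96.6 and 107 in the aged, 57.9, 57.3 and 59.7 in the vehicle and 58, 54.8 and 54.9 in the uridine libraries. Both cultures lay below the young libraries and those below the aged uncultured ones. It fell by 0.79 in vehicle culture (SE 0.0494, edgeR adjusted p = 1.44e-16) and by 0.85 in uridine culture (SE 0.0492, edgeR adjusted p = 1.62e-17). Ndufa1 fell by 0.65 and 0.83, Ndufv3 by 0.59 and 0.70, and Ndufb10 by 0.53 and 0.71 in vehicle and uridine culture. Cox6b2 fell by 2.20 in vehicle (SE 0.163, edgeR adjusted p = 1.74e-14) and 1.03 in uridine culture (SE 0.144, edgeR adjusted p = 8.23e-08), the largest falls among members with a mean of at least 5 CPM. Atp5e fell by 0.74 and Ndufa2 by 0.72 in uridine culture (SE 0.0499, edgeR adjusted p = 1.35e-15, and SE 0.0625, edgeR adjusted p = 1.17e-12).

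The nuclear members that rose in vehicle culture belonged to several complexes. Ndufaf4, an assembly factor of complex I, rose by 0.45 from 25.5 ± 1.46 to 34.9 ± 1.86 CPM (SE 0.0754, edgeR adjusted p = 2.05e-06), Ndufab1, the mitochondrial acyl carrier protein, by 0.42 (SE 0.0747, edgeR adjusted p = 7.29e-06) and Uqcrb by 0.41 (SE 0.086, edgeR adjusted p = 7.38e-05). Uqcrb had 28, 34.5 and 39.4 CPM in the young, 38.5, 35.1 and 34.2 in the aged, 50.1, 47.5 and 45.7 in the vehicle and 40.6, 38.6 and 33.6 in the uridine libraries. The vehicle libraries alone lay above all others. Cox7c, a small complex IV subunit, rose by 0.22 from 65.6 ± 2.19 to 76.4 ± 4.35 CPM (SE 0.0602, edgeR adjusted p = 0.00159). Sdhb and Sdhc rose by 0.20 and 0.18, so that complex II gave 2 higher and 0 lower of 4 in vehicle culture (median 0.11), where complex III gave 1 higher and 6 lower of 8 (median -0.30). In uridine culture only Ndufaf4 (0.29), Ndufs1 (0.17) and Atp5b (0.05) were called higher among the nuclear members. For Atp5b the call was lost without uridine replicate 1 (adjusted p = 0.0591), aged replicate 2 (0.0626) or aged replicate 3 (0.156), and with upper quartile scaling its value was -0.007.

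Of the mitochondrial genes without a copy, all 5 fell in vehicle culture and 4 of 5 in uridine culture. mt-Nd6 fell by 0.66 and 0.74 (SE 0.0268, edgeR adjusted p = 2.58e-22, and SE 0.0268, edgeR adjusted p = 1.17e-23), and mt-Cytb by 0.41 and 0.43. mt-Nd5 was lower by 0.07 in vehicle culture, a call lost without aged replicate 2 (adjusted p = 0.0955), and was not called in uridine culture (0.03), where leaving out the same library gave a call (0.06, adjusted p = 0.01). mt-Co1 rose by 0.14 (SE 0.0134, edgeR adjusted p = 6.72e-12) and 0.08 (SE 0.0134, edgeR adjusted p = 4.32e-06); the second call was lost with upper quartile scaling (0.022, adjusted p = 0.12). Levels of mt-Nd4 and mt-Cytb in the cultures were near those of young cells (823 ± 3.73 and 819.8 ± 4.95 against 806 ± 13.8 CPM for mt-Nd4, 1893 ± 24.5 and 1870 ± 16.2 against 1856 ± 46.7 CPM for mt-Cytb).

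Complex IV has several subunits with a widely used and a tissue-restricted isoform, and the restricted ones were scarce. Cox6a2, the heart and muscle form of Cox6a1, had 4.35, 4.22 and 5.36 CPM in the young, 2.06, 0.905 and 1.93 in the aged, 1.58, 1.65 and 1.41 in the vehicle and 2.56, 2.92 and 1.94 in the uridine libraries. The young libraries lay above all others, and Cox6a2 was lower with age by 1.498 (SE 0.271, edgeR adjusted p = 9.87e-06). The ratio of Cox6a2 to Cox6a1 counts was 0.0263 ± 0.00333 in young and 0.00864 ± 0.00309 in aged libraries. Cox4i2, the lung and low-oxygen form of Cox4i1, had 0.4, 0.821 and 0.82 CPM in the young, 1.53, 1.88 and 2.27 in the aged, 0.473, 0.385 and 0.734 in the vehicle and 0.443, 0 and 0.646 in the uridine libraries. It had 38 counts over the young, 83 over the aged uncultured, 29 over the vehicle and 22 over the uridine libraries, and reached 100 counts only with the aged uncultured group, where it was highest. Its differences from that group are therefore given as levels without a test, although its calls (higher with age, lower in both cultures) are among the counts of complex IV above. The abundant form Cox4i1 rose by 0.30 with age (SE 0.0362, edgeR adjusted p = 3.96e-09) and fell by 0.18 with uridine (SE 0.036, edgeR adjusted p = 8.87e-05), while Cox6a1 (0.08 with age, edgeR adjusted p = 0.0458) kept its call only in the fit without aged replicate 2 when a library was left out (adjusted p up to 0.223). Cox6b2 counts were 0.181 ± 0.0233 of those of Cox6b1 in young, 0.145 ± 0.00804 in aged, 0.0332 ± 0.00976 in vehicle and 0.0964 ± 0.011 in uridine libraries. Cox8a was not called with age (0.09, SE 0.039, edgeR adjusted p = 0.0515) and fell by 0.18 with uridine (SE 0.0387, edgeR adjusted p = 0.000205). Cox7a2 was called at 0.14 with age (edgeR adjusted p = 0.0179), and the call was lost without young replicate 1 (adjusted p = 0.0687), young replicate 2 (0.0928) or aged replicate 3 (0.0523). Ndufa4, which sits in complex IV despite its name, was not called with age or uridine (-0.00 and -0.02) and fell by 0.18 and 0.20 in vehicle and uridine culture. Cox7a1, the muscle form of Cox7a2, was not called in any of the 4 comparisons, with mean levels of 0.733 to 1.04 CPM. Cox7a2l, which helps join complexes III and IV, rose by 0.61 with age (SE 0.0377, edgeR adjusted p = 1.29e-16) and was lower by 0.16 with uridine, 0.52 in vehicle and 0.67 in uridine culture.

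Nuclear subunits were also divided by the length of their mRNA. Of the 40 with the shorter mRNAs (366 to 758 bases) 25 rose and 2 fell with age (median 0.17), and of the 39 with the longer ones (763 to 4715 bases) 18 rose and 5 fell (0.14). In uridine culture 30 of the shorter and 28 of the longer fell (medians -0.34 and -0.18). Across the 79 genes, which share libraries, the Spearman correlation of the log2 fold change with mRNA length was -0.287 with age, 0.194 with uridine, 0.206 with vehicle culture and 0.310 with uridine culture. Subunits were divided in the same way by whether a promoter matched any of the 3 motifs: with age 21 of 32 with a match and 16 of 33 without rose (medians 0.16 and 0.14), and with uridine 18 and 12 fell (-0.14 and -0.12). The 3 printed examples were chosen because they moved differently, with Atp5k at 0.67, Cox6a1 at 0.08 and Sdhd at -0.10 with age. Their spread therefore says nothing about matched subunits in general.

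Genes that serve the pathway without matching the symbol rule were taken from lists. Their counts are to be read against the shares of all genes called higher and lower, which were 33.2 and 32.1% with age, 20.0 and 18.1% with uridine, 35.4 and 35.1% in vehicle culture and 35.8 and 32.1% in uridine culture. Of 43 assembly factors of the 5 complexes 16 rose and 4 fell with age (37.2 and 9.3%, median 0.13), 0 rose and 16 fell with uridine (0 and 37.2%, median -0.19). Of the same list 13 rose and 13 fell in vehicle culture (30.2% each, median 0.06) and 8 rose and 13 fell in uridine culture (18.6 and 30.2%, median -0.13). The share that rose with age, both shares in vehicle culture and the share that fell in uridine culture were near those of all genes. Cox16 and Cox14, which act in complex IV assembly, rose by 0.83 and 0.53 with age, and Coa5 fell by 0.38. Of 22 electron carriers and their biosynthetic genes 7 rose and 7 fell with age (31.8% each, near the shares of all genes). With uridine 0 rose and 4 fell (0 and 18.2%, the second near the share of all genes). In vehicle culture 6 rose and 9 fell (27.3 and 40.9%), and in uridine culture 5 rose and 9 fell (22.7 and 40.9%). Coq8a, needed for coenzyme Q synthesis, went from 17 ± 0.529 to 58.1 ± 1.6 CPM with age. Its log2 fold change was 1.77 (SE 0.0849, edgeR adjusted p = 7.61e-20), and it was 10.7 ± 0.903 and 12.3 ± 1.51 CPM in the cultures. Of 20 genes of mitochondrial DNA upkeep and transcription 9 rose and 1 fell with age (45 and 5%), 2 rose and 3 fell with uridine (10 and 15%), and 5 rose and 6 fell in vehicle culture (25 and 30%). In uridine culture 3 rose and 7 fell (15 and 35%, the second near the share of all genes). The mitochondrial thymidine kinase Tk2 went from 22.8 ± 1.82 to 62 ± 3.67 CPM with age, a log2 fold change of 1.44 (SE 0.0768, edgeR adjusted p = 1.72e-18). Of 25 genes that process or degrade mitochondrial RNA 8 rose and 8 fell with age (32% each, near the shares of all genes) and 12 rose and 5 fell in vehicle culture (48 and 20%). With uridine 1 rose and 4 fell (4 and 16%, the second near the share of all genes). In uridine culture 9 rose and 5 fell (36 and 20%, the first near the share of all genes). Pnpt1, the mitochondrial polynucleotide phosphorylase, fell by 0.42 with age and rose by 1.05 in vehicle culture, opposite to the exonuclease Rexo2 (0.69 and -0.36).

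Of 13 transcriptional regulators of the pathway 2 rose and 9 fell with age (15.4 and 69.2%, median -0.33), 7 rose and 3 fell with uridine (53.8 and 23.1%, median 0.21) and 7 rose and 2 fell in vehicle culture (53.8 and 15.4%, median 0.11). In uridine culture 9 rose and 1 fell (69.2 and 7.69%, median 0.255). Hcfc1, a cofactor of several such factors, went from 525 ± 20.2 CPM in young to 217 ± 9.31 in aged libraries. Its log2 fold change with age was -1.28 (SE 0.0308, edgeR adjusted p = 4.57e-29), and it stood at 393 ± 8.56 CPM in vehicle and 484 ± 5.69 in uridine libraries. Yy1 fell by 0.34 and Pprc1, a PGC-1 related coactivator, by 0.58 with age. The 14 genes of the tricarboxylic acid cycle gave 4 higher and 7 lower with age (28.6 and 50%, median -0.09) and 2 higher and 5 lower with uridine (14.3 and 35.7%, median -0.06). They gave 7 higher and 4 lower in vehicle culture (50 and 28.6%) and 6 higher and 6 lower in uridine culture (42.9% each). Dlst and Cs, which act in 2-oxoglutarate oxidation and citrate synthesis, fell by 0.64 and 0.33 with age. Of 10 genes of uncoupling and nucleotide exchange 2 rose and 2 fell with age (20% each), with Ucp2, an uncoupling protein of blood cells, lower by 0.89 (SE 0.0232, edgeR adjusted p = 5.79e-28), and 3 rose and 5 fell with uridine (30 and 50%). In vehicle culture 7 rose and 2 fell (70 and 20%), and in uridine culture 4 rose and 3 fell (40 and 30%, near the shares of all genes).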

How the data were processed

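Per the labels' protocols, mRNA was taken from total RNA with poly-T beads and sequenced as paired reads of 150 bases. Alignment used HISAT2 2.0.5 and mm10, per the submitters' processing notes. The authors deposited whole-number counts per gene. The sources used here name no counting program or annotation, nor how strand and reads with several matches were treated. Of 54532 gene IDs 37 matched no GENCODE M21 gene and held at most 0.00589% of a library's counts.

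Columns were assigned to groups by their titles. edgeR 4.0.16 (R 4.3.3) fitted the deposited counts of all 12 libraries with TMM factors, filterByExpr and the quasi-likelihood F-test, with 1 coefficient per group, Benjamini-Hochberg adjustment over 16675 genes and a threshold of 0.05. The script was tested on simulated data. Library totals of 16785065 to 19025802 counts set the counting precision. DESeq2 1.42.0, limma 3.58.1 (voom), other scalings, filters, a replicate block and the omission of each library were tried. Fits without a library were read for 60 members and for the summary counts and medians. Near-identical copies were found with BLAST 2.17.0 as matches of at least 150 bases at 98% identity. Lengths are those of the principal transcripts of GENCODE M21, and promoters come from RefSeq.

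Members were named where they led a comparison (up to 5 nuclear members per direction by size of change, called, with a mean of at least 5 CPM and no overlap between groups), where they are encoded by mitochondrial DNA, belong to the catalytic or redox core or are tissue isoforms. Of the pathway lists, called genes with the smallest p were named. Other members named are examples. Not every member this rule covers is reported here. The members, lists and rules were chosen with earlier results of these data known.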

Additional observations from a re-analysis of the deposited data

How the results depend on the processing

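Leaving out 1 library kept the number of members called with age at 51 to 56 higher and 8 to 12 lower, with uridine at 4 to 7 and 36 to 41, in vehicle culture at 11 to 13 and 44 to 52, and in uridine culture at 5 to 7 and 61 to 67. The nuclear median ranged from -0.128 to -0.077 in vehicle culture and from -0.255 to -0.207 in uridine culture, and the mitochondrial median from -0.432 to -0.310 in vehicle culture. The nuclear median in uridine culture was -0.255 with DESeq2 and with its size factors in edgeR, -0.277 with upper quartile scaling and -0.254 with only the 6 libraries compared. In vehicle culture it was -0.168 with upper quartile scaling, -0.073 with no filter on low counts, -0.119 with a filter of 1 CPM in 3 libraries, -0.137 with protein-coding genes only and -0.121 with only the 6 libraries compared. Upper quartile scaling gave mitochondrial medians of -0.458 and -0.422 in vehicle and uridine culture, and reversed Atp5b there, to -0.050 and -0.007. Replicate numbers did not pair the libraries (correlations of same-numbered deviations from -0.0525 to 0.0194). With the replicate block, 58 members were called higher and 11 lower with age, 6 and 42 with uridine, 12 and 47 in vehicle culture and 6 and 69 in uridine culture.

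The following alternatives were chosen after seeing the data. Library totals without TMM factors gave 21 members higher and 54 lower with age, 60 and 17 in vehicle culture and 46 and 22 in uridine culture, with nuclear medians of -0.187, 0.232 and 0.134, all 3 reversed, and mitochondrial medians of 0.086, -0.060 and -0.011. Under that scaling the median of all genes itself moved, as given above, and the medians relative to it did not reverse. The shares of all genes called under it are not given here. Adding the counts of the chromosome 1 copies gave mitochondrial medians of 0.476 with age and -0.329 in vehicle culture and reversed mt-Nd3 with age to 0.642. Using only the 7 mitochondrial genes without a full-length copy gave -0.067 with uridine and -0.243 in vehicle culture. Leaving out mt-Co1 changed the difference in the log2 ratio of mitochondrial to nuclear counts to 0.347 with age, 0.041 with uridine, -0.196 in vehicle culture and -0.155 in uridine culture, the last 2 reversed. Single members were not read under library totals, where the counts above show that many calls changed direction. Over 60 members in 4 comparisons, 4319 values under the other alternatives were read. Of these, 4114 kept their side of the threshold, and their direction wherever the gene was called. Another 111 lost the call, 91 gained one, and 3 reversed with a call in at least 1 of the 2 fits. Changes of sign in genes called in neither fit were not counted as reversed. The cause of these shifts was not tested. Genes near 1 CPM, such as Cox4i2 and Cox7a1, rest on few counts.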

Other observations

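The mitochondrial ribosomal RNAs, which the symbol rule leaves out as they code for no protein, moved opposite to most mitochondrial mRNAs with age and in culture. mt-Rnr2, the large ribosomal RNA, had 531, 529.9 and 539.8 CPM in the young, 361, 364 and 353 in the aged, 577, 581 and 581 in the vehicle and 549, 541 and 544 in the uridine libraries. The aged uncultured libraries were the low ones, with no overlap with any other group, and mt-Rnr2 was lower by 0.57 with age (SE 0.0238, edgeR adjusted p = 1.17e-21) and higher by 0.69 in vehicle culture. mt-Rnr1, the small ribosomal RNA, was lower by 0.48 with age (SE 0.0386, edgeR adjusted p = 1.93e-13) and by 0.31 with uridine (SE 0.0363, edgeR adjusted p = 8.83e-09), and higher by 0.78 in vehicle culture. Libraries were made from poly(A) RNA, so these levels are those of the captured fraction. Ndufa4l2, a relative of Ndufa4 with 64 counts in all, had 1.13, 0.765 and 1.1 CPM in the aged uncultured libraries and at most 0.282 in any other. The values of mt-Rnr1, mt-Rnr2 and Ndufa4l2 were chosen after they were seen.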
